A study of Mus musculus with 18 samples.

Results

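The collagen chain genes are the 44 genes with a symbol made of Col, a number, a and a number (such as Col1a1) that had a row in both count tables, out of 26149 genes found in both. They were measured by RNA sequencing in mice with the T166A form of PPARg, in which alanine replaces a threonine of this lipid-sensing nuclear receptor, and in wild-type (WT) mice. The skin libraries were made from cells that bound anti-F4/80 magnetic beads (F4/80 is a macrophage surface protein) after dorsal skin was taken 6 days after injury and digested with collagenase IV (2 mg/ml), hyaluronidase and DNase, with 6 libraries from PPARg T166A mice and 6 from WT mice. The bone marrow-derived macrophages (BMDM) were grown in M-CSF (50 ng/ml), a macrophage growth factor, for 7 days from marrow of PPARg T166A mice, which gave 3 libraries, or of C57BL/6J mice, which gave 3 WT libraries. In each BMDM genotype, replicates 1 and 2 were batch B1 and replicate 3 was batch B2, while the skin labels gave no batch. The labels name no tissue-specific driver for the T166A form, and the ages and the number of animals behind each library are not given. The p-values therefore measure the spread between these libraries, which may be technical.

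Collagens are secreted or membrane-bound proteins in which chains wind around each other into a triple helix, and each chain is encoded by its own gene. Types I, III and V form the banded fibrils of dermis and scar and are made mainly by fibroblasts. Type IV forms the sheet-like network of basement membranes beneath epithelia and around vessels, nerves and fat cells, and types XV and XVIII are proteoglycans anchored at those membranes. Macrophages take up and degrade collagen in a wound, and are not known as its main source.

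In the skin fraction, 3 of 6 type IV chains and both multiplexins (types XV and XVIII) were higher in T166A libraries, and the abundant chains of fibrils did not pass the test. Of the 39 collagen genes with enough counts to be tested, 8 (20.5%) were higher in T166A, namely Col4a1, Col4a2, Col4a5, Col6a5, Col15a1, Col18a1, Col20a1 and Col28a1, and 3 (7.69%) were lower, namely Col11a2, Col23a1 and Col25a1. Of all 15473 genes tested, 12.7% were higher and 13.2% were lower by the same rule, which was a Benjamini-Hochberg adjusted p under 0.05 over all genes in the quasi-likelihood test of edgeR. The remaining 28 tested chains had log2 fold changes of -0.76 to 0.46 and adjusted p-values of 0.0669 to 0.989. The median log2 fold change was -0.10 over the 39 chains and 0.01 over all genes tested. The other 5 members, Col2a1, Col9a1, Col9a2, Col10a1 and Col26a1, had too few counts to be tested. In BMDM, none of the 20 chains tested was called in either direction. In these bulk libraries, fewer cells of a type and less RNA per cell cannot be told apart.

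**Figure D1:**
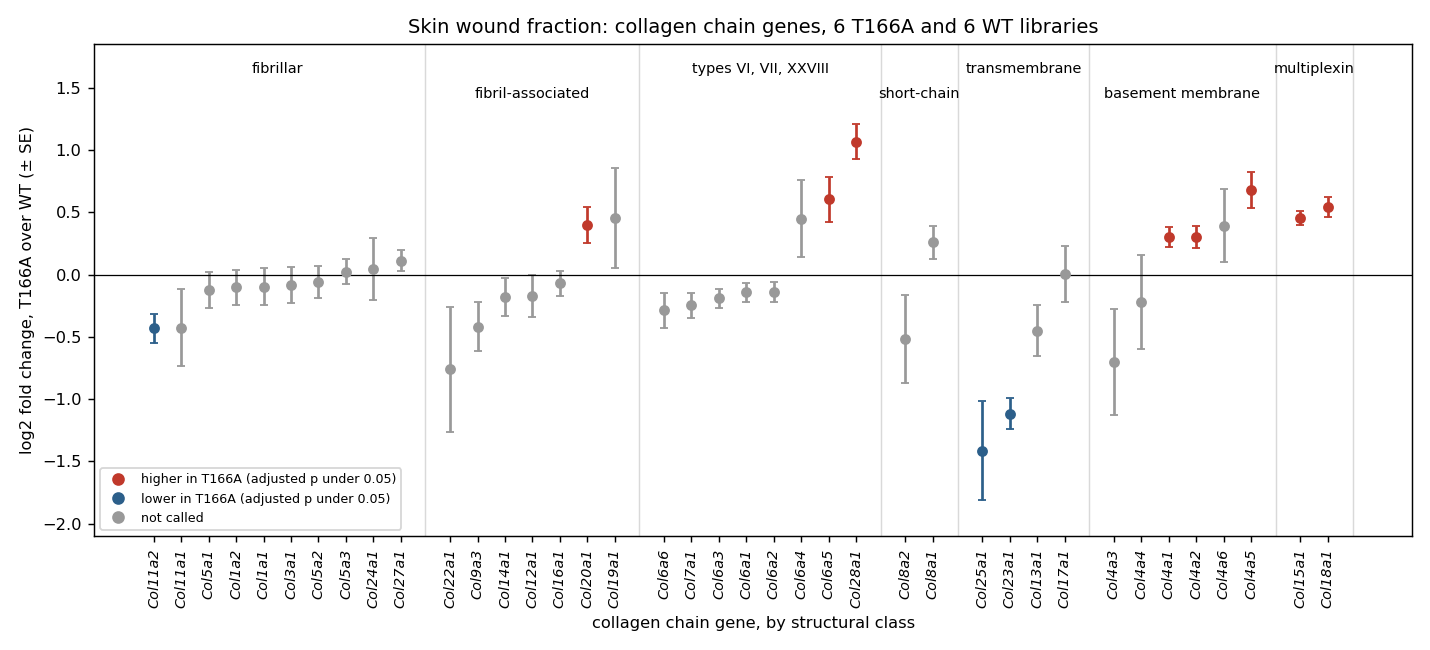
The log2 fold change of each of the 39 tested collagen chain genes in the skin fraction (vertical axis, T166A over WT, with its standard error) is grouped by structural class along the horizontal axis. Red points are the 8 chains called higher in T166A, blue points the 3 called lower and grey points the 28 not called; all 5 called chains of the 2 rightmost classes lie above 0, while 9 of the 10 fibrillar chains are grey.

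Levels are given in CPM, which is the share of a library's gene counts scaled to 1e6, and fold changes are T166A over WT after TMM scaling. TMM scaling lowered the T166A to WT ratio of every skin gene by 0.09 on the log2 scale. Without it, 3357 of all genes were called higher and 1308 lower (72.0% of calls higher, against 48.9% with it), and the same 8 and 3 collagen genes were called. Gene counts ranged from 29357354 to 38774475 per skin library and from 40072513 to 44152639 per BMDM library. The 10 macrophage markers were all measured in both sources, and their sum was 12557 to 14349 CPM in T166A and 14023 to 16206 CPM in WT skin libraries. Pparg itself averaged 25.2 ± 3.28 CPM in T166A and 27.2 ± 1.24 CPM in WT skin libraries (SD, n = 6 each; log2 fold change -0.19 with SE 0.08, adjusted p = 0.0778 by edgeR), and a count of its transcripts does not show a point mutation. The skin fraction also held RNA of other cell types. Compared with WT, markers of vessels (7 of 10 endothelial genes), of pericytes and smooth muscle (5 of 8), of Schwann cells (6 of 6) and of adipocytes (9 of 9 tested) were higher in T166A libraries, while markers of skeletal muscle (7 of 8) and macrophages (7 of 10) were lower.

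Collagen chains took 1.39% of gene counts on average in T166A and 1.32% in WT skin libraries. Their sum was 13899 ± 1782 CPM in T166A and 13164 ± 1463 CPM in WT libraries, with ranges of 10627 to 15771 CPM in T166A and 10779 to 14968 CPM in WT libraries that overlapped. The fibrillar chains made up 71.6% of this sum, the type IV chains 15.2%, types VI, VII and XXVIII 6.31%, the multiplexins 4.61%, and the fibril-associated chains 2.00%. The short-chain types gave 0.127% and the transmembrane types 0.151%. Per kilobase of transcript, the scale on which genes can be compared, Col3a1 was the most abundant with a mean level of 695 CPM per kilobase over the 12 libraries, ahead of Col1a1 with 495, Col1a2 with 378, Col4a1 with 195 and Col4a2 with 123. On this scale Col18a1 (67.7) stood just above the type VI chains Col6a1 (63.2) and Col6a2 (58.5), and Col15a1 (57.9) just below them.

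The type I and type III chains, which build the dermal fibril, did not pass the test. Col1a1 (chromosome 11, 94936224 to 94953042), the major chain of type I collagen, had 1879, 2970.2 and 3600.4 CPM as the lowest, median and highest T166A values, against 2197, 2967 and 3348 CPM in WT libraries. The T166A range enclosed the WT range at both ends. Its log2 fold change was -0.10 with SE 0.14 (adjusted p = 0.679 by edgeR). Col1a2, its partner in the type I trimer, had 1299, 2053 and 2477 CPM in T166A and 1561, 2082 and 2279 CPM in WT libraries, with a log2 fold change of -0.10 with SE 0.14 (adjusted p = 0.645 by edgeR). Col3a1 (chromosome 1, 45311538 to 45349706), the chain of type III collagen, an early component of healing skin, had 2649.6, 3874 and 4916 CPM in T166A and 2866, 3965 and 4428 CPM in WT libraries. Its log2 fold change was -0.08 with SE 0.15 (adjusted p = 0.722 by edgeR). All 3 differences were smaller than the spread between libraries. With a fibroblast marker score as a covariate, however, Col1a1 (log2 fold change 0.32), Col1a2 (0.32) and Col3a1 (0.36) were called higher, with edgeR adjusted p-values of 0.0112, 0.00554 and 0.00223 for the 3 chains in that order. The score itself shifted with genotype, from 5.14 to 5.79 in T166A and from 5.66 to 5.93 in WT libraries. A fit with both terms therefore cannot fully separate the score from genotype, and these calls do not show a level per fibroblast.

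The type V chains, which nucleate fibrils and limit their width, were not called either. Col5a1 had 213, 329 and 365 CPM in T166A and 247, 324 and 419.61 CPM in WT libraries, and Col5a2 had 207, 304 and 340.2 CPM in T166A and 222, 286 and 349 CPM in WT libraries. Both sets of ranges overlapped, with log2 fold changes of -0.13 and -0.06 (SE 0.14 and 0.13). With the fibroblast score as a covariate, Col5a2 (log2 fold change 0.29, edgeR adjusted p = 0.0157) and Col5a3 were called higher. Of the remaining fibrillar genes, Col5a3, Col11a1, Col24a1 and Col27a1 had no call, and the log2 fold changes of the 9 uncalled fibrillar chains ran from -0.43 to 0.11. Col11a2 (chromosome 17, 34038919 to 34066684), a chain of the type XI collagen best known from cartilage, was the exception. It had 6.15, 8.26 and 9.77 CPM in T166A against 8.41, 9.92 and 12.1 CPM in WT libraries, with 4 T166A libraries below the lowest WT value (log2 fold change -0.43 with SE 0.12, adjusted p = 0.00804 by edgeR). Its call was lost with the fibroblast score, where the log2 fold change was -0.46 (edgeR adjusted p = 0.0619), and with an endothelial score, where it was -0.35 (edgeR adjusted p = 0.238). Col2a1, the main chain of cartilage, was at most at 0.279 CPM in T166A and 0.409 CPM in WT libraries, and of 3 tested chondrocyte markers Comp alone passed, in the higher direction.

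The library numbered 3 had the lowest fibrillar level in each genotype. It was the lowest of its genotype for 8 of the 10 tested fibrillar chains in T166A and for 7 of 10 in WT libraries, and for 0 of the 6 type IV chains in either. The share of all tested genes that were lowest there was not computed. The type I, III and V chains rank the libraries alike, so they are not separate observations. The summed fibrillar level was 6451 CPM in this T166A library, against 9139 to 11994 CPM in the other 5, and 7286 CPM in this WT library, against 9330 to 10974 CPM in the other 5. Its sum of fibroblast markers (13 genes, no collagen) was also the lowest of each genotype, at 1305 CPM in T166A and 1429.8 CPM in WT libraries. Pdpn, the most abundant of them and also found in every BMDM library, did not follow this. It had 614 CPM in T166A replicate 3, the highest of that genotype, and 600 CPM in WT replicate 3, within a WT range of 584 to 640 CPM. Without both libraries, 7 chains were higher and 4 lower in T166A: the call of Col20a1 was lost and Col6a3 was gained as lower, in an alternative chosen after seeing the data. That fit called 1828 of all 15517 genes higher and 1885 lower.

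Ratios of chains that share a molecule or fibril varied little between libraries of either genotype. Per kilobase, Col1a1 stood at 1.31 ± 0.03 times Col1a2 in T166A and 1.30 ± 0.03 times in WT libraries (SD, n = 6 each), in a range of 1.26 to 1.37 over all 12. Col3a1 to Col1a1 was 1.41 ± 0.09 in T166A and 1.40 ± 0.04 in WT libraries, and Col4a1 to Col4a2 was 1.59 ± 0.05 in T166A and 1.59 ± 0.04 in WT libraries. Col6a1 to Col6a2 was 1.08 ± 0.05 in both genotypes. Col5a1 to Col5a2 was 0.860 ± 0.062 in T166A and 0.898 ± 0.025 in WT libraries, and Col6a3 to Col6a1 was 0.518 ± 0.013 in T166A and 0.535 ± 0.036 in WT libraries. None of the 6 ratios passed a two-sided exact permutation test between genotypes, with p from 0.162 to 0.985 and adjusted p from 0.974 to 0.985, and the smallest p this test can give is 0.0022.

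**Figure D2:**
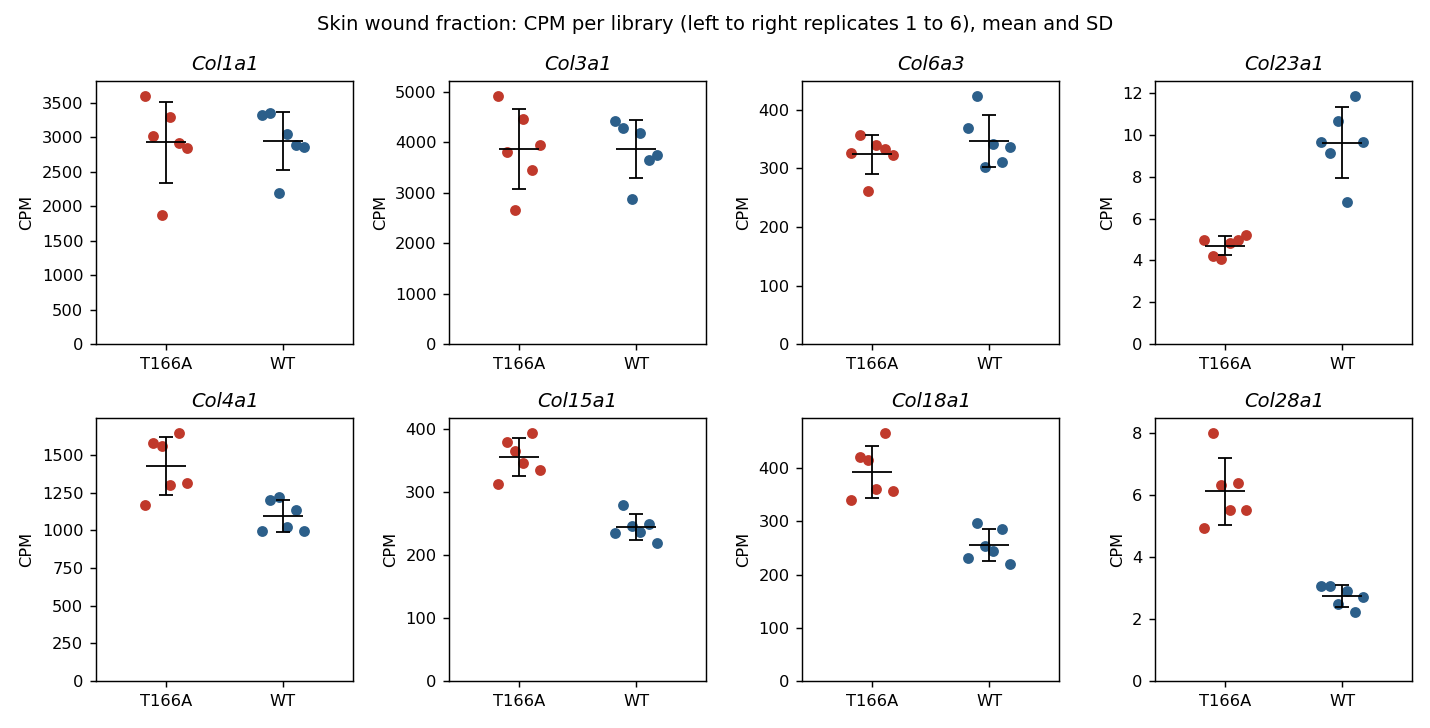
CPM of 8 collagen chain genes in each skin library (vertical axes, starting at 0), with T166A on the left in red and WT on the right in blue; the points run from replicate 1 to 6 and the black bars are the mean and SD of the 6 libraries. Col1a1, Col3a1 and Col6a3 overlap between genotypes, Col15a1, Col18a1 and Col28a1 lie wholly higher in T166A, and Col23a1 lies wholly lower.

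Among the type IV genes, the ubiquitous pair rose. Col4a1 (chromosome 8, 11198423 to 11312889), which encodes the most widespread chain of basement membranes, had 1171, 1437 and 1649 CPM in T166A against 993, 1079 and 1221 CPM in WT libraries, with 5 of 6 T166A libraries above every WT library. It averaged 1429.6 ± 192 CPM in T166A and 1095 ± 104 CPM in WT libraries, a 1.23-fold difference after scaling (log2 fold change 0.30 with SE 0.08, adjusted p = 0.00709 by edgeR). Col4a2 (chromosome 8, 11312805 to 11449287), its partner in the same trimer, had 741, 883 and 1092 CPM in T166A against 611, 673 and 783 CPM in WT libraries (log2 fold change 0.30 with SE 0.09, adjusted p = 0.0166 by edgeR). Again 5 of 6 T166A libraries exceeded all WT libraries.

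Col4a1 and Col4a2 are transcribed away from each other from one shared promoter, which is the reason for showing their start regions. In the RefSeq windows used, the start sites on GRCm38.p6 lie 21 bases apart, and annotated exons of the 2 genes share 22 bases. The windows of 300 bases, from 250 before to 50 after each start, are chr8:11312777-11313076 on the minus strand for Col4a1 and chr8:11312555-11312854 on the plus strand for Col4a2, each written 5′ to 3′ along its own gene. Capitals mark the 78 bases that both windows hold, chr8:11312777-11312854, read in opposite directions.
Col4a1: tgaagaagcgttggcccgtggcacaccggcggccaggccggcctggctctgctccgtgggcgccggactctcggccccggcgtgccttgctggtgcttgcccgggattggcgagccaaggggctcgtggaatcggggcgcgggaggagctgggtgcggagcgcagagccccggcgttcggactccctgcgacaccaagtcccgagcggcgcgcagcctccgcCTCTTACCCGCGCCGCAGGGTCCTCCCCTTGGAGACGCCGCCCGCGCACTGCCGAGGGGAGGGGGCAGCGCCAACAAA
Col4a2: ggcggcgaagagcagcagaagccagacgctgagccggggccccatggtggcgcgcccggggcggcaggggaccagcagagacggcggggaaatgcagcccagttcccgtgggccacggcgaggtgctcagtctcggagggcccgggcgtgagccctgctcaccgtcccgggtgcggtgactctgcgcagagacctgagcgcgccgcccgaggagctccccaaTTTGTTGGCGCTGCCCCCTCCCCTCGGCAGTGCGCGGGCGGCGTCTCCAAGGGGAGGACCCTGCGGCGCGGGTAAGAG

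The second type IV pair, on the X chromosome, is also transcribed in opposite directions but does not overlap, with start sites 1343 bases from each other and windows that share 0 bases. Col4a5 (chromosome X, 141475370 to 141689236), a chain of epithelial and smooth muscle basement membranes whose human counterpart is mutated in Alport syndrome, had 5.49, 7.38 and 8.40 CPM in T166A against 3.07, 4.47 and 4.91 CPM in WT libraries. Every T166A library lay above every WT library (log2 fold change 0.68 with SE 0.14, adjusted p = 0.000989 by edgeR). Col4a6, its neighbour, had 0.888, 1.13 and 2.12 CPM in T166A against 0.523, 1.01 and 1.26 CPM in WT libraries, and was not called (log2 fold change 0.39 with SE 0.29, adjusted p = 0.356 by edgeR). Col4a3 and Col4a4, chains of the kidney filter, reached at most 0.868 CPM in any library and were not called. The start windows of the X-linked pair, with capitals marking each CCAAT or GGGCGG on either strand, show what lies at the 2 separate starts, chrX:141475169-141475468 on the plus strand and chrX:141474027-141474326 on the minus strand.
Col4a5: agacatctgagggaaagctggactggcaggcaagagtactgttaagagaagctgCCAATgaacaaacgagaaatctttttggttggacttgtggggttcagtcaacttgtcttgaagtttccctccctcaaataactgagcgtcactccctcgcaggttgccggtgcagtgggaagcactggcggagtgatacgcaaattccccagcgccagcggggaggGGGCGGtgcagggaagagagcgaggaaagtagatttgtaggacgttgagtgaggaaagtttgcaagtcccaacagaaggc
Col4a6: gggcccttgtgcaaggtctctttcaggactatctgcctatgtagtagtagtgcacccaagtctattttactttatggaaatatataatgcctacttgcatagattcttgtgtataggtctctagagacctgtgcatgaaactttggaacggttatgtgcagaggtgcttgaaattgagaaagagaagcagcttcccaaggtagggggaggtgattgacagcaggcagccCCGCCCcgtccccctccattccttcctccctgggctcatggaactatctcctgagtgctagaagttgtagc

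Start windows were at hand for 35 of the 44 genes, 38 windows in all. Searched on both strands, CCAAT was in 34.2% of the collagen windows and 37.4% of the 32851 windows of all genes, GGGCGG in 60.5% and 35.7%, and TATAAA in 13.2% and 13.6%. The direct repeat of AGGTCA with 1 base (N) between its copies, the idealised element of PPARg with its partner RXR, was in 0 of the 38 and in 0.0396% of all windows, which says only that these letters are not in these stretches. The collagen windows were also richer in G and C, with a median of 59.8% against 52.7%.

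Both multiplexins rose. Col15a1 (chromosome 4, 47207655 to 47313167), which encodes a proteoglycan of vessel, nerve and muscle basement membranes, had 312, 355 and 394 CPM in T166A against 219, 241 and 279.63 CPM in WT libraries (1.37-fold, log2 fold change 0.45 with SE 0.06, adjusted p = 4.0e-06 by edgeR). Col18a1 (chromosome 10, 77052178 to 77166530), the source of the fragment endostatin, had 339, 389 and 467 CPM in T166A against 221, 249.51 and 296 CPM in WT libraries (1.45-fold, log2 fold change 0.54 with SE 0.08, adjusted p = 6.3e-05 by edgeR). For both genes the lowest T166A library stood above the highest WT library. With Col4a5 and Col28a1 they were the 4 tested chains (10.3%) without overlap in this direction, against 8.83% of all genes tested.

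Type IV chains and endothelial markers were high in the same libraries. The 10 endothelial markers, among which Pecam1 was the most abundant with 565 ± 76.8 CPM in T166A and 369 ± 52.2 CPM in WT libraries, summed to 1699.7 to 2484 CPM in T166A and 1209.6 to 1752 CPM in WT libraries, and none was at 0. The summed type IV level was 1919 to 2749.7 CPM in T166A and 1614 to 1991 CPM in WT libraries. Set against the endothelial sum of the same library, type IV chains stood at 1.05 to 1.13 in T166A and 1.13 to 1.33 in WT libraries, and the multiplexins at 0.327 to 0.383 in T166A and 0.285 to 0.385 in WT libraries. These quotients were chosen after the values were seen and carry no test. With an endothelial marker score as a covariate, also chosen after seeing the data, the log2 fold change was -0.04 for Col4a1, -0.05 for Col4a2 and 0.45 for Col4a5 and none of the 3 was called (edgeR adjusted p = 0.809, 0.716 and 0.159). Since the endothelial markers themselves differed by genotype, that fit cannot fully separate the score from genotype. Over all 15473 genes it called 774 higher and 1139 lower, against 1963 and 2048 without the score. With the same covariate Col15a1 (0.28) and Col18a1 (0.26) were still called higher (edgeR adjusted p = 0.0131 and 0.0389). With a fibroblast score, Col4a1 and Col4a2 were at 0.06 and not called (edgeR adjusted p = 0.669 and 0.691).

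**Figure D3:**
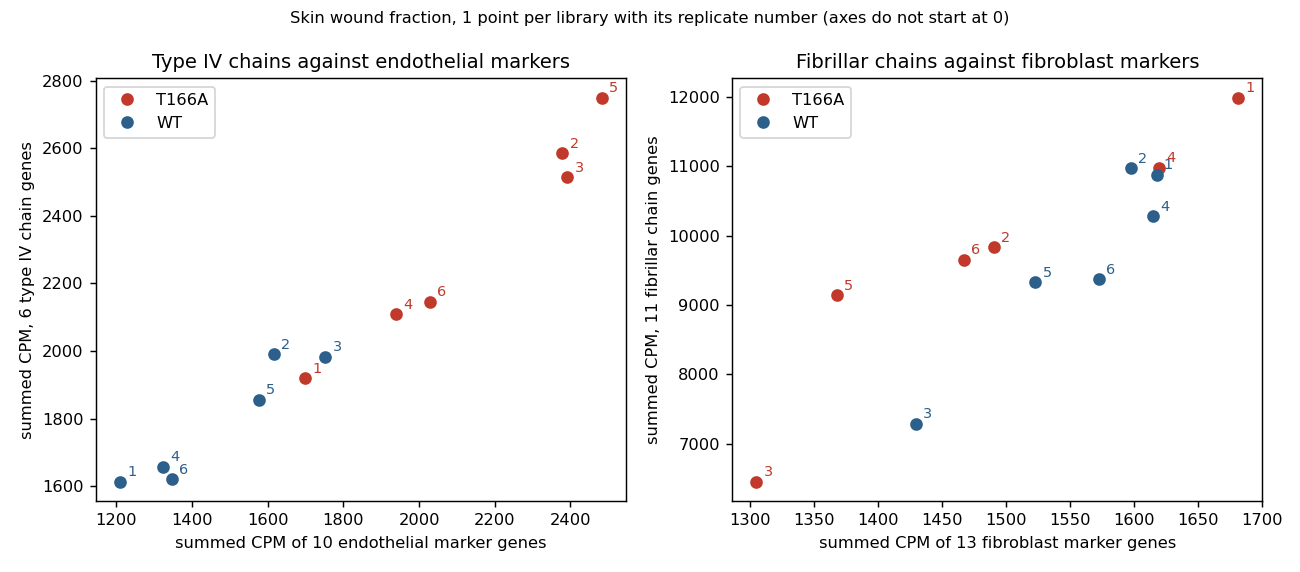
The summed CPM of a collagen class (vertical axis) is plotted against the summed CPM of marker genes (horizontal axis) for each skin library, in red for T166A and blue for WT, with the replicate number beside each point; the axes do not start at 0. On the left, the 6 type IV genes and the endothelial markers are both high in T166A replicates 2, 3 and 5; on the right, the 11 fibrillar genes and the fibroblast markers are both lowest in replicate 3 of each genotype.

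Pericyte and smooth muscle markers, led by Rgs5 with 400.03 ± 73.5 CPM in T166A and 239 ± 24.4 CPM in WT libraries, summed to 859 to 1167 CPM in T166A and 481 to 740.2 CPM in WT libraries, without overlap. Adipocyte markers, led by Car3 with 64.1 ± 8.98 CPM in T166A and 13.8 ± 4.14 CPM in WT libraries, summed to 111 to 187 CPM in T166A and 31.4 to 54.4 CPM in WT libraries. Both cell types are surrounded by basement membrane, and the part of their markers in the type IV and multiplexin levels was not tested. Of 6 tested bone stroma markers 3 were higher, with sums of 219 to 320.04 CPM in T166A and 183 to 242 CPM in WT libraries and Kitl as the most abundant.

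Across the 12 skin libraries, after centring by genotype, the type I, III and V chains ranked the libraries much as Col1a1 did, and Col4a2, Col15a1 and Col18a1 much as Col4a1 did. The 5 genes whose ranks were most like those of Col1a1 were Col5a1 (Spearman's rho 0.98), Wdr81, Antxr1 (each 0.97), Col6a2 and Gga2 (each 0.97). Col1a2, Col5a2 and Col5a3 each stood at 0.94, Col3a1 at 0.90 and Col4a1 at -0.32. The other fibrillar chains stood lower, with Col11a1 at 0.64, Col27a1 at 0.50, Col24a1 at 0.41 and Col11a2 at 0.077. For Col4a1, looked at after the values were seen, Col4a2 came first of all genes (0.95), and Col18a1 stood at 0.89 and Col15a1 at 0.87. Col14a1, a fibril-associated chain, stood at -0.71 to Col4a1. These values describe 12 libraries that share their preparation and are relative shares of a total.

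The type VI trimer, a beaded filament around cells, was not called. Col6a1 had 204, 259.86 and 287 CPM in T166A and 225, 264 and 303 CPM in WT libraries, and Col6a2 had 177, 239 and 243 CPM in T166A and 191, 238 and 265 CPM in WT libraries. Col6a3 had 262, 330.4 and 357 CPM in T166A and 302, 339 and 424 CPM in WT libraries, with a log2 fold change of -0.19 with SE 0.08 (adjusted p = 0.0789 by edgeR). Col6a3 was called lower when WT replicate 3 (edgeR adjusted p = 0.0299) or WT replicate 5 (0.0443) was left out. Without WT replicate 3, Col6a2 was called lower as well, which raised the number of lower chains from 3 to 5. Of all 15602 genes in that fit, 1968 were called lower. Col7a1, the anchoring fibril of the skin's junction, had a fold change of -0.25 on the log2 scale (edgeR adjusted p = 0.0669). The keratinocyte markers, led by Krt14, had 1 of 10 lower and summed to 163 to 318 CPM in T166A and 138 to 348 CPM in WT libraries.

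Col6a5 and Col28a1 of the same structural class rose. Col28a1 (chromosome 6, 7997100 to 8193709), a chain described in mice at the basement membranes of peripheral nerve, had 4.94, 5.94 and 8.02 CPM in T166A against 2.22, 2.82 and 3.08 CPM in WT libraries. The lowest T166A library was above the highest WT library, and the difference was 2.09-fold, the largest of any collagen chain called higher (log2 fold change 1.07 with SE 0.14, adjusted p = 7.1e-06 by edgeR). Schwann cell markers moved with it: all 6 reported here were higher, the sum was 22.4 to 35.4 CPM in T166A and 14.1 to 20.2 CPM in WT libraries, and the most abundant of them was Scn7a with 10.2 ± 1.76 CPM in T166A and 6.61 ± 0.896 CPM in WT libraries. Their part in the Col28a1 level was not tested. Col6a5 had 3.09, 3.94 and 6.28 CPM in T166A against 1.94, 2.61 and 3.40 CPM in WT libraries (log2 fold change 0.60 with SE 0.18, adjusted p = 0.0142 by edgeR). Leaving out T166A replicate 2 ended the call of Col6a5 at a log2 fold change of 0.46 (edgeR adjusted p = 0.0574), and the fibroblast score at 0.45 (edgeR adjusted p = 0.225). With the endothelial score the log2 fold change was 0.24 (edgeR adjusted p = 0.629). Col28a1 was called with either score (edgeR adjusted p = 0.00102 with the fibroblast and 0.00646 with the endothelial score).

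The fibril-associated chains, which sit on the surface of fibrils, were led by Col12a1 with 76.9, 129.75 and 156 CPM in T166A and 113, 125 and 185 CPM in WT libraries, and it was not called (log2 fold change -0.17 with SE 0.17, adjusted p = 0.506 by edgeR). Col20a1 (chromosome 2, 180983323 to 181017545) was the single member of the class that was called, with 5.28, 6.63 and 8.23 CPM in T166A against 3.34, 4.72 and 5.91 CPM in WT libraries (log2 fold change 0.39 with SE 0.14, adjusted p = 0.0472 by edgeR). It passed in 10 of 23 alternative settings. Its call was lost when T166A replicate 2, 3, 5 or 6 or WT replicate 1, 3, 4 or 6 was left out, with edgeR adjusted p-values of 0.0606 to 0.119. With the fibroblast score its log2 fold change was 0.03 (edgeR adjusted p = 0.930) and with the endothelial score -0.04 (edgeR adjusted p = 0.934). The short-chain gene Col8a1, a product of vessel wall cells, had 14.8, 17.1 and 23.5 CPM in T166A and 10.6, 13.7 and 19.5 CPM in WT libraries and was not called (log2 fold change 0.26 with SE 0.13, adjusted p = 0.171 by edgeR).

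Of the 4 transmembrane chains, 2 fell. Col23a1 (chromosome 11, 51289679 to 51583925), a cell surface collagen that can be shed, had 4.07, 4.90 and 5.22 CPM in T166A against 6.79, 9.67 and 11.9 CPM in WT libraries. Its fold was 0.461, and it was the single tested chain (2.56%) with every T166A library below every WT library, against 4.08% of all genes tested (log2 fold change -1.12 with SE 0.12, adjusted p = 7.0e-07 by edgeR). Col25a1, needed in mice for motor axons to enter muscle, had 0.106, 0.290 and 0.503 CPM in T166A against 0.377, 0.684 and 1.37 CPM in WT libraries (log2 fold change -1.42 with SE 0.40, adjusted p = 0.0101 by edgeR). These values are near the limit of the depth, since 3 counts correspond to 0.0774 to 0.102 CPM in the skin libraries. Col23a1 was called lower with either marker score as a covariate (edgeR adjusted p = 6.2e-05 with the fibroblast and 0.000101 with the endothelial score), and Col25a1 with neither (log2 fold changes -0.93 and -0.77, edgeR adjusted p = 0.307 and 0.492). Skeletal muscle markers were lower with them, with a sum of 27.5 to 38.4 CPM in T166A and 57.1 to 84.8 CPM in WT libraries and with Acta1 at 16.4 ± 2.84 CPM in T166A and 38.7 ± 4.70 CPM in WT libraries. Their part in either fall was not tested. Col17a1, the hemidesmosome collagen of keratinocytes, had 7.09, 10.4 and 15.7 CPM in T166A and 7.18, 9.24 and 15.6 CPM in WT libraries and was not called (edgeR adjusted p = 0.989).

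Of 33 tested genes that fold, modify and crosslink the chains, 1 was higher and 0 were lower, against 12.7% and 13.2% of all genes tested. The gene that rose was Tll1, a relative of the procollagen C-proteinase Bmp1, with 58.0 ± 8.99 CPM in T166A and 27.2 ± 4.74 CPM in WT libraries (SD, n = 6 each; log2 fold change 1.01 with SE 0.11, adjusted p = 7.9e-06 by edgeR). Of the uncalled genes, the prolyl hydroxylase subunit P4ha2 (log2 fold change 0.15) had the smallest adjusted p among those with a positive fold change, and the lysyl oxidase relative Loxl4 (-0.28) and the galactosyltransferase Colgalt1 (-0.11) among those with a negative one. Of 11 fibril partners, Comp (log2 fold change 0.97 with SE 0.26, adjusted p = 0.00677 by edgeR) was higher and Thbs2, which restrains vessel growth, was lower at 99.9 ± 16.8 CPM in T166A and 133 ± 13.3 CPM in WT libraries (log2 fold change -0.50 with SE 0.10, adjusted p = 0.00207 by edgeR). Fn1 (log2 fold change -0.13) and Sparc (0.03) had no call.

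Collagen receptors moved in both directions, with 3 of 11 tested higher and 3 lower, against 12.7% and 13.2% of all genes tested. Itga2 (37.8 ± 3.58 CPM in T166A and 25.4 ± 2.13 CPM in WT libraries) and Itga1 (50.5 ± 6.95 CPM in T166A and 36.0 ± 5.26 CPM in WT libraries), the collagen-binding integrin subunits of platelets, vessels and other cells, were higher, with log2 fold changes of 0.48 and 0.40 (SE 0.07 and 0.10), as was Ddr1. Mrc1, the mannose receptor of macrophages that also takes up collagen, was lower at 1129.9 ± 60.1 CPM in T166A and 1339 ± 74.8 CPM in WT libraries (log2 fold change -0.33 with SE 0.06, adjusted p = 0.000111 by edgeR). Lair1, an inhibitory collagen receptor of immune cells, was at 15.5 ± 2.44 CPM in T166A and 20.7 ± 3.98 CPM in WT libraries (log2 fold change -0.51 with SE 0.14, adjusted p = 0.0116 by edgeR), and Itga11 was the third that fell. The macrophage markers Lyz2 (4407 ± 163 CPM in T166A and 5251 ± 373 CPM in WT libraries, log2 fold change -0.34) and 6 others of 10 fell beside them. Of 7 collagen-degrading enzymes, Mmp8 was lower (log2 fold change -0.98 with SE 0.32, adjusted p = 0.0416 by edgeR) and Ctsk (0.40), Mmp9 (0.64) and Mmp2 (-0.25) were not called. Of 13 fibroblast markers without collagens, Pdpn, Clec3b and Pi16 were lower and 0 were higher, and Pdpn was the most abundant at 588 ± 21.7 CPM in T166A and 614 ± 22.8 CPM in WT libraries.

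In BMDM, cultures that per the labels were checked for F4/80 and CD11b by flow cytometry, collagen chains were rare apart from Col18a1, and 1 library stood apart. The summed collagen level was 91.3, 86.1 and 635 CPM in T166A replicates 1, 2 and 3 and 169, 81.0 and 79.4 CPM in WT replicates 1, 2 and 3. T166A replicate 3, whose column is headed TA3, was above the other 5 libraries. Without it the T166A mean was 88.7 CPM, against a WT mean of 109.69 CPM, so that the sign of the difference turned with this 1 library. Of the 20 chains tested, 0 were called in either direction, against 0.0609% of 13139 genes called higher and 0.00761% called lower. By edgeR 0 of the 20 had an unadjusted p under 0.05, limma-voom called 0, and DESeq2 called 0, with 1 chain at an unadjusted p under 0.05 and no adjusted p for 24 of its 37.

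Col18a1 had the most counts of any chain in BMDM, 16582 over the 6 libraries, ahead of Col1a1 with 11336. Its BMDM row was another transcript than its skin row, and the length at hand was that of the skin row. No level per kilobase is therefore given for it in BMDM. It had 68.3, 60.7 and 57.4 CPM in T166A and 82.8, 59.3 and 63.9 CPM in WT libraries, with T166A replicate 3 the lowest of the 6 (log2 fold change -0.17 with SE 0.15, adjusted p = 0.653 by edgeR). Whether this differs from the rise of Col18a1 in the skin fraction, which was counted on the other transcript, was not tested.

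The fibrillar chains were high in T166A replicate 3. Col1a1 had 3.33, 3.94 and 251 CPM in T166A and 15.0, 2.08 and 2.10 CPM in WT replicates 1, 2 and 3. The third T166A library was 16.7 times the next highest, while the WT library of the same batch, replicate 3, was among the lowest. Col3a1 had 0.634, 1.26 and 106 CPM in T166A and 3.42, 1.10 and 0.549 CPM in WT libraries, so that the same library was 30.9 times the next highest. Col1a2 had 3.35, 4.45 and 64.8 CPM in T166A and 14.2, 0.749 and 1.37 CPM in WT libraries. Col5a2 had 0.679, 0.321 and 39.5 CPM in T166A and 14.4, 0.211 and 0.699 CPM in WT libraries. In these 4 genes WT replicate 1 was the second highest library. Fitted with batch as a term, Col1a1 had a log2 fold change of 0.55 with SE 2.60 (adjusted p = 0.952 by edgeR), Col3a1 of 0.84 (SE 2.69), Col1a2 of 0.62 (SE 2.34) and Col5a2 of -1.84 (SE 3.84), all of which were smaller than their standard errors. Within batch B1 alone, Col1a1 stood at -1.21 (adjusted p = 0.460), so that its sign also turned, and batch B2 had 1 library per genotype and gave no test. With both T166A replicate 3 and WT replicate 1 left out, an alternative chosen after seeing the data that leaves 1 residual degree of freedom, Col1a2 alone of 18 tested chains was called higher (log2 fold change 2.34, edgeR adjusted p = 0.0155). That fit called 897 of all 13117 genes higher and 552 lower, so the call is not particular to collagens.

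**Figure D4:**
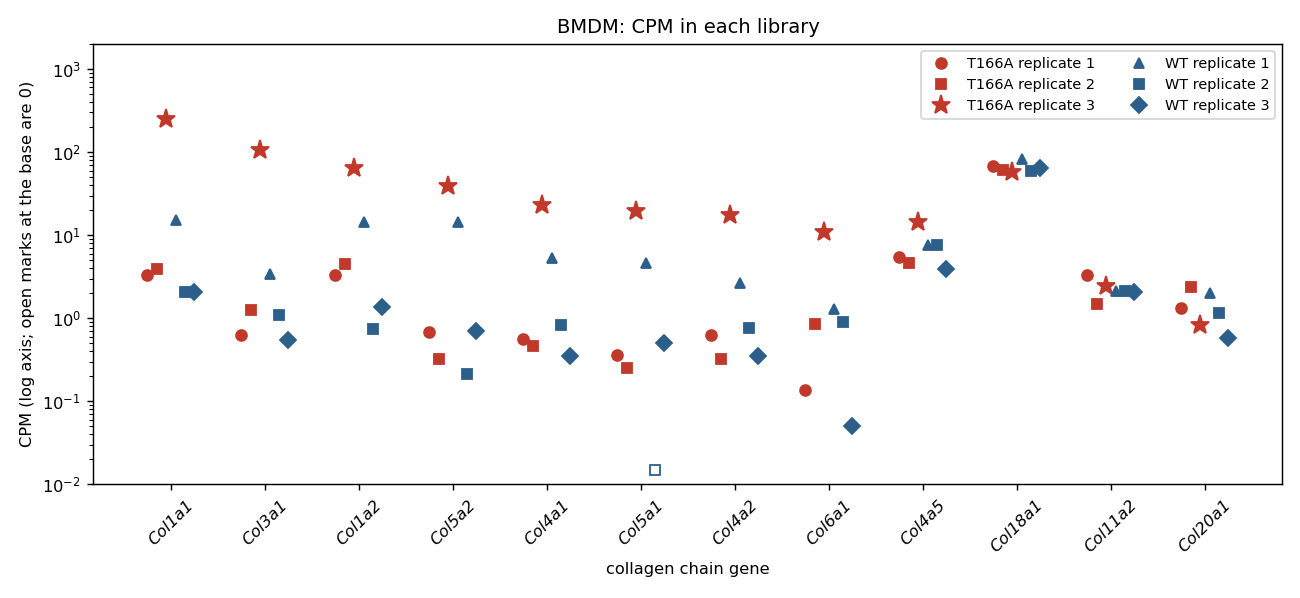
CPM of 12 collagen chain genes in each of the 6 BMDM libraries on a log axis, with the T166A libraries in red left of the WT libraries in blue for each gene and an open mark at the base for a value of 0. T166A replicate 3 (star) is the highest library for the 9 genes on the left and WT replicate 1 (triangle) mostly the next, while Col18a1, Col11a2 and Col20a1 do not follow this order.

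T166A replicate 3 was the highest of the 6 libraries for 14 of the 20 tested chains, the others being Col9a3, Col11a2, Col15a1, Col18a1, Col19a1 and Col20a1. WT replicate 1 was the highest WT library for 16 of the 20. Both counts cover only chains that passed the count filter, and Col6a3 and Col8a1 passed it with the help of these same libraries. The share of all tested genes that were highest in either library was not computed. Of the 6 type IV genes, Col4a1, Col4a2 and Col4a5 were tested, and each was highest in T166A replicate 3 and next highest in WT replicate 1. Col4a1 had 0.566, 0.458 and 22.9 CPM in T166A and 5.27, 0.819 and 0.349 CPM in WT libraries, and Col4a5, which was steadier, had 5.39, 4.65 and 14.6 CPM in T166A and 7.67, 7.58 and 3.92 CPM in WT libraries. The chain ratio in T166A replicate 3 was unlike that of the skin fraction, with Col1a1 at 3.49 times Col1a2 per kilobase, although this ratio ran from 0.800 to 2.51 in the other 5 BMDM libraries. Of the 24 chains without enough counts to test, Col6a4, Col6a5, Col6a6, Col9a1, Col9a2, Col13a1 and Col26a1 were at 0 in every library, where 3 counts correspond to 0.0679 to 0.0749 CPM. The other 17, Col2a1, Col4a3, Col4a4, Col4a6, Col5a3, Col8a2, Col10a1, Col11a1, Col14a1, Col16a1, Col17a1, Col22a1, Col23a1, Col24a1, Col25a1, Col27a1 and Col28a1, did not exceed 1.74 CPM in any library.

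Some other genes of matrix-producing cells were high in T166A replicate 3, and some were not. Sparc, a collagen-binding matrix protein, had 0.453, 2.15 and 104 CPM in T166A and 9.05, 1.83 and 1.17 CPM in WT libraries. The collagen chaperone Serpinh1 had 0.521, 0.413 and 37.0 CPM in T166A and 5.61, 0.843 and 0.399 CPM in WT libraries, and the procollagen processing enhancer Pcolce had 35.6 CPM in T166A replicate 3 and at most 0.950 CPM in the other 5 libraries. Lox and Bgn, of the crosslinking and fibril partner lists, were instead highest in WT replicate 1. Lox had 1.56, 0.848 and 5.55 CPM in T166A and 19.6, 0.773 and 1.70 CPM in WT libraries. Bgn had 2.04, 1.51 and 0.614 CPM in T166A and 10.6, 0.492 and 0.299 CPM in WT libraries. The 13 fibroblast markers summed to 38.5, 39.0 and 42.2 CPM in T166A and 77.1, 54.1 and 40.5 CPM in WT libraries, and Pdpn alone gave 25.1 to 57.9 CPM of this in each library. T166A replicate 3 was the highest library for 5 of the 13, Fstl1, Twist2, Dpt, Mfap5 and Clec3b. Fstl1 had 0.453, 1.33 and 12.8 CPM in T166A and 4.78, 0.421 and 0.898 CPM in WT libraries, and the other 4 of these were at most at 0.761 CPM. Dcn was at 0.639 CPM in T166A replicate 3 and 10.9 CPM in WT replicate 1, and Lum at 0 CPM in T166A replicate 3. The neurofilament genes Nefl and Nefm, which were named after their values were seen, had 65.4 and 78.4 CPM in T166A replicate 3 and 0 CPM in the other 5 libraries. Pericyte and smooth muscle markers summed to 21.6 CPM in T166A replicate 3 and 18.6 CPM in WT replicate 1, against 4.22 to 5.27 CPM in the other 4 libraries. The part of other cell types in the collagen levels was not tested. The 10 macrophage markers were all measured, with sums of 36673 to 48678 CPM in T166A and 40254 to 51436 CPM in WT libraries. Of the collagen folding, fibril partner, receptor and degrading enzyme lists, 23, 7, 7 and 7 genes were tested in BMDM and 0 were called.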

How the data were processed

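The authors deposited raw counts per RefSeq transcript, 1 table for skin and 1 for BMDM, per the file headers. The submitters' processing notes list HISAT2 2.2.1, featureCounts without a version, cutadapt 4.4, FastQC 0.12.1 and the mm10 build. Strand and shared read settings are not stated in the sources used here. At most 6.07% of a member's exon bases lay under another gene's exons.

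Rows were matched to symbols through RefSeq (45697 of 45843 in skin, 45749 of 45895 in BMDM) or GENCODE (29 in each). The 117 unmatched rows of each table (0.187% and 0.514% of counts) were left out. Each gene was represented by its row with the highest summed CPM, since isoform rows repeat shared exons and their sum is about 2.04 times larger in both tables. The row was chosen in each table, and for Col4a1, Col13a1, Col18a1 and Col25a1 it was a different transcript in skin and BMDM. Lengths used per kilobase belong to the skin row. Intervals and floors of 3 counts cover counting error only.

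Each source was fitted over all genes in R 4.3.3 with edgeR 4.0.16 (TMM, filterByExpr at 10 counts and 15 in total, robust quasi-likelihood F test), skin on genotype and BMDM on batch and genotype, with Benjamini-Hochberg adjustment and a threshold of 0.05. The steps were also run on simulated counts that held no batch effect and no outlying library, so that run does not cover these features of the BMDM data. The biological coefficient of variation was 0.133 in skin and 0.279 in BMDM, with 10 and 3 residual degrees of freedom. In BMDM, each T166A library correlated best with the WT library of its own number (deviations from the genotype mean, 0.200, 0.115 and 0.185). Batch was not removed and replicate 3 was batch B2 in both genotypes, so these values cannot show pairing apart from batch. Rank correlations used log2(CPM + 0.1) centred by genotype. Start windows are from RefSeq on GRCm38.p6. Alternatives included DESeq2 1.42.0 and limma 3.58.1 (voom with quality weights).

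The members, gene lists and marker lists were chosen with earlier results of these data known. The genes given with values were every called chain, the most abundant chain of each structural class, the 6 most abundant in BMDM, the chains of the 6 ratios, the top 2 members per direction of a pathway list by adjusted p, the most abundant gene of a marker list, and Pparg. Chosen after their values were seen were Col4a6 and Col7a1 in skin and Sparc, Serpinh1, Pcolce, Lox, Bgn, Fstl1, Dcn, Lum, Nefl and Nefm in BMDM. Some Schwann cell markers are not reported here, and that list was counted without them in skin and not given in BMDM.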

Additional observations from a re-analysis of the deposited data

Results flagged for a closer look

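Of 58 groups of 6 skin libraries examined, 3 held a library whose gap to the nearest other, divided by the range of the group, passed Dixon's critical value of 0.625, a number that chance alone gives for about 1 group in 20. Among T166A skin libraries, replicate 3 had 261.9 CPM of Col6a3, against 323 to 357 CPM in the other 5. Among WT skin libraries, replicate 2 had 185 CPM of Col12a1, against 113 to 135 CPM in the other 5. In the same WT library the log2 ratio of Col5a1 to Col5a2 counts was 0.264, against 0.156 to 0.187 in the other 5. BMDM groups have 3 libraries and were not examined in this way.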

How the results depend on the processing

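In skin, Col15a1, Col18a1, Col23a1 and Col28a1 passed the test under all 23 alternatives, and the number of chains called higher ran from 6 to 9 and lower from 3 to 5 when single libraries were left out. It was 5 higher with an endothelial score (chosen after seeing the data; Col14a1 and Col3a1 were gained and Col4a1, Col4a2, Col4a5, Col6a5 and Col20a1 lost) and 3 lower, and 10 higher and 3 lower with a fibroblast score, which lost Col4a1, Col4a2, Col6a5 and Col20a1 and gained Col1a1, Col1a2, Col3a1, Col5a2, Col5a3 and Col14a1 as higher. With either score Col11a2 and Col25a1 were lost and Col13a1 and Col22a1 gained as lower. With a replicate block, 9 were higher and 8 lower. The skin numbers did not pair the libraries (correlations -0.05 to 0.09, none best with its own number), and the BMDM block changed no collagen call. Calls over all genes tested moved as well, from 1963 higher and 2048 lower in the main fit. They were 774 and 1139 with the endothelial score, 1182 and 1464 with the fibroblast score, and 2248 and 2301 with the block. With single libraries left out they were 1703 to 2089 and 1770 to 2090. The sign of a log2 fold change turned with the fibroblast score for Col1a1 (0.32), Col1a2 (0.32), Col3a1 (0.36), Col5a1 (0.23), Col5a2 (0.29), Col6a1 (0.0462), Col6a2 (0.0777) and Col12a1 (0.19). With the endothelial score it turned for Col1a1 (0.30), Col1a2 (0.30), Col3a1 (0.40), Col4a1 (-0.0352), Col4a2 (-0.0533), Col5a1 (0.16), Col5a2 (0.27), Col6a1 (0.00886), Col6a2 (0.0568), Col12a1 (0.0315), Col17a1 (-0.35) and Col20a1 (-0.0385). Without scaling factors it turned for Col3a1 (0.00412) and Col5a2 (0.0275), and for Col17a1 by limma-voom (-0.0266) and with a replicate block (-0.0146). Leaving out single libraries gave -0.17 to 0.00144 for Col1a1, -0.17 to 0.00136 for Col3a1, -0.12 to 0.0183 for Col5a2 and -0.13 to 0.16 for Col17a1. The cause of these changes was not tested.

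In BMDM, 1 of 18 chains was called higher without T166A replicate 3 and WT replicate 1, where 897 of all 13117 genes were called higher. Under the other alternatives 0 chains were called. Without those libraries the sign turned for Col18a1 (0.0879), Col3a1 (-0.25), Col5a2 (1.21) and Col4a5 (-0.63). In batch B1 alone it turned for Col1a1 (-1.21), Col3a1 (-1.24), Col1a2 (-0.92) and Col4a5 (-0.60), by limma-voom for Col4a5 (-0.16), and for Col5a2 with a replicate block (0.62) or no batch term (1.38). Leaving out single libraries gave -1.21 to 3.07 for Col1a1, -1.24 to 2.97 for Col3a1, -0.91 to 3.84 for Col1a2, -3.83 to 4.12 for Col5a2 and -0.60 to 0.55 for Col4a5. None of the 6 chain ratios passed under any alternative run. The lowest adjusted p was 0.0519, for Col5a1 to Col5a2. Depth limits the chains under about 1 CPM, and 3 against 3 libraries limit BMDM.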
